A study of Mus musculus with 8 samples.

Results

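Antioxidant enzymes and metallothioneins were followed in the olfactory bulb of mice that had inhaled diesel exhaust (DE) or clean air after being reared in a standard cage or in environmental enrichment. The set held 10 genes, the superoxide dismutases Sod1 and Sod2, catalase (Cat), glutathione peroxidase 1 (Gpx1), the peroxiredoxins Prdx1 and Prdx6, thioredoxin (Txn1) and the metallothioneins Mt1, Mt2 and Mt3, and its members were taken by gene name among the noncontrol probes of the array. These 10 were among 34797 gene names on the array. They had 16 probes, and 15 of these probes, with at least 1 for every member, passed the filter on signal and annotation that left 21706 probes in all. The remaining probe, for Mt1, was well above background on every array but carried an Ensembl transcript name and no GenBank or RefSeq accession.

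The offspring of C57BL/6J dams were kept from before birth in a standard cage (C) or in a larger enriched cage with a running wheel, a house, blocks and tubes (EE), and were housed in the same way in the chambers. From postnatal day 28 to 55 the males received clean air (C-C and EE-C) or DE at 90 µg/m3 for 8 hours a day over 28 days (C-DE and EE-DE), and the bulbs were taken at 56 days of age. The RNA was pooled within groups, from 7 mice in each standard-cage group, 8 enriched mice in clean air and 9 enriched mice under DE, and every pool went onto 2 one-colour Agilent arrays. By these methods each group was a single pool whose duplicates carry no variation between mice, and no difference between 2 pools could be tested. No test of exposure or rearing over the 4 pools was run. Duplicates differed severalfold in markers of other tissues in EE-C and less widely in C-C and EE-DE (values at the end), so whether duplicates held the same RNA is not known, and their ranges may not be technical alone. All values are log2 signals relative to the 75th percentile of the array, so that 0 is the level of that percentile, and each difference between pools is a log2 fold change with the range that its 4 possible pairings of arrays gave. The exposure comparisons are C-DE/C-C after standard rearing and EE-DE/EE-C after enriched rearing, and the rearing comparisons are EE-C/C-C in clean air and EE-DE/C-DE under DE. Pools were called not overlapping when both arrays of one lay above both arrays of the other, and 1.5-fold is the threshold of the study's methods.

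The 8 arrays lay on 1 slide, the standard-cage pools in column 1 and the enriched pools in column 2, so rearing and slide column cannot be told apart. In both columns the clean-air arrays were in slide rows 1 and 2 and the DE arrays in rows 3 and 4, so exposure and slide row cannot be told apart either. The 75th percentile lay between 644 and 716 intensity units, and between 56.7% and 70.6% of noncontrol spots were well above background, with the lowest share on EE-DE array 1. EE-C array 1 stood apart: the SD between duplicates was 0.17 (log2) in EE-C against 0.11 to 0.13 in the other pools. In a bulk sample, fewer cells of a type and less RNA per cell cannot be told apart.

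Reactive oxygen species are removed in steps. Superoxide dismutases turn superoxide into hydrogen peroxide, Sod1 in the cytosol with copper and zinc and Sod2 in mitochondria with manganese. Catalase in peroxisomes, glutathione peroxidases and peroxiredoxins then reduce the peroxide, and thioredoxin keeps most peroxiredoxins working. Metallothioneins are small cysteine-rich proteins that hold zinc and copper and also react with oxidants. In the brain Mt1 and Mt2 are typical of astrocytes and respond to metals, glucocorticoids and oxidants, while Mt3 is largely a gene of the nervous system.

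Several results turn on which probe stood for a gene, so stretches of 30 bases are shown for the probes of Cat and Prdx1 and for the probes of Slc8a3 and Il15ra, whose profile over the arrays was among the nearest to that of Cat. Capitals mark the longest run of CA or TG dinucleotides where there is one, 8 in the brighter Cat probe, 15 in Slc8a3 and 8 in Il15ra.
Cat, brighter probe, bases 27 to 56: cacatacCACACACACACACACAtgcaata
Cat, dimmer probe, bases 1 to 30: aacagtgctaatgaagacaatgtcactcag
Slc8a3, bases 31 to 60: CACACACACACACACACACACACACACACA
Il15ra, bases 25 to 54: atatgtaTGTGTGTGTGTGTGTGtatgtaa
Prdx1, brighter probe, bases 1 to 30: ctgatgtcaataagagcaaagagtatttct
Prdx1, dimmer probe, bases 1 to 30: aggatctacttttctagtgctggttttata

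No member differed by 1.5-fold in any of the 4 comparisons, where 0.576% of all passing probes did so for exposure after standard rearing, 0.944% for exposure after enriched rearing, 0.825% for rearing in clean air and 0.636% for rearing under DE. In the main setting the largest difference of any member was that of Cat in C-DE/C-C, 0.32 on the log2 scale. With normexp background correction it was that of Sod1 in EE-C/C-C, −0.39. The median absolute difference of the 10 members was 0.06, 0.05, 0.09 and 0.05 in the same order, and that of all passing probes was 0.06, 0.06, 0.07 and 0.06. With sign, the members' medians were 0.00, −0.03, 0.09 and 0.03, and those of all passing probes 0.01 or less from 0. Without EE-C array 1 the second was 0.03 and the third 0.02. The plot of the members among all probes shows that they lay in the body of the distribution in every comparison apart from Cat and Prdx1.

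**Figure D1:**
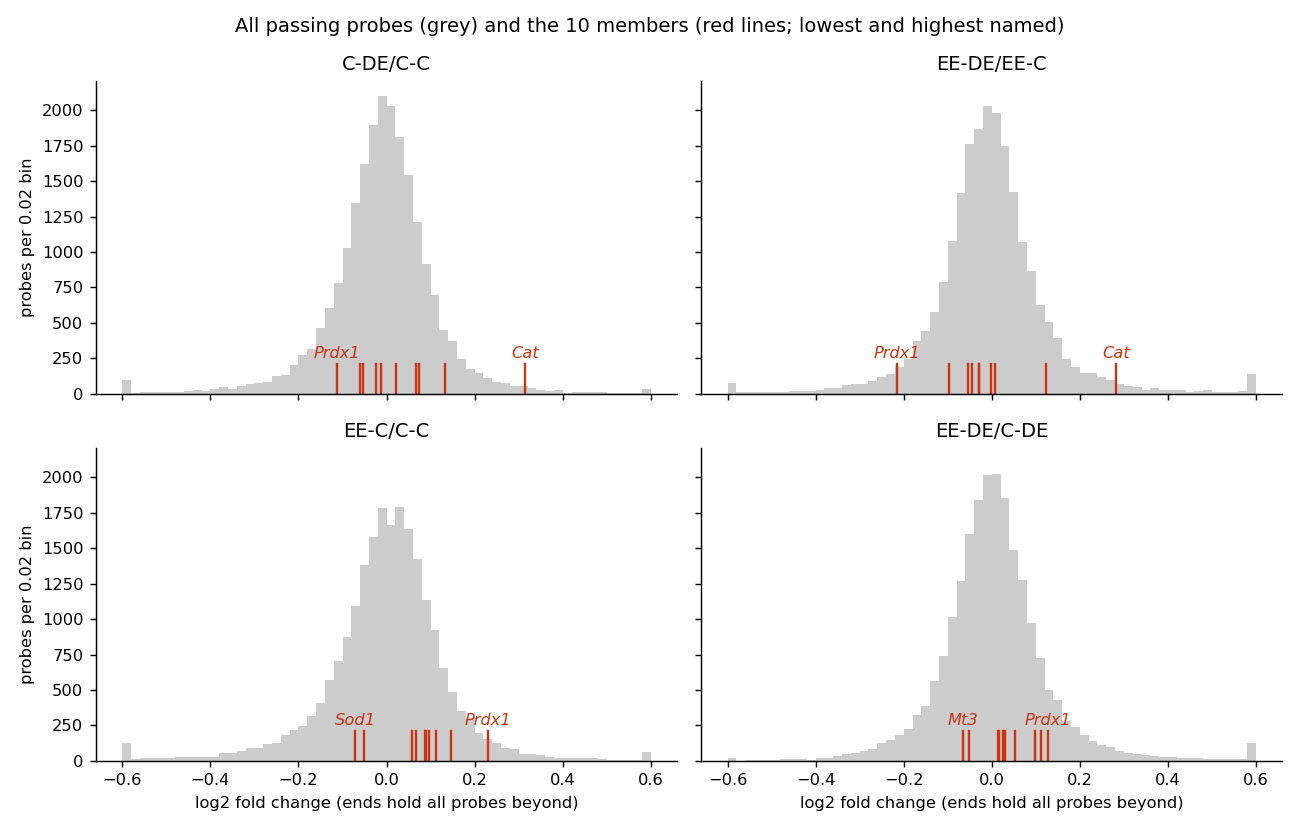
Number of passing probes (grey bars, vertical axis, bins of 0.02) by log2 fold change (horizontal axis) in the 4 comparisons, with the 10 members as red lines, each at its brightest passing probe. Cat lay at 0.32 with exposure after standard rearing and 0.28 after enriched rearing, above the 95th percentile of all passing probes in both (0.17 and 0.20).

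In C-DE/C-C, 4 of 10 members lay higher without overlap (Sod2, Cat, Txn1 and Mt3), against 18.5% of all passing probes, and 2 lay lower (Prdx1 and Mt1), against 22.4%. With exposure after enriched rearing, 2 lay higher (Sod1 and Cat), against 14.6% of probes, and 2 lower (Sod2 and Gpx1), against 19.6%. Between the pools in clean air, EE-C/C-C, Sod2 and Gpx1 lay higher, against 20.2% of probes, and no member lay lower, against 17.5%. Between the exposed pools, EE-DE/C-DE, 3 members lay higher (Cat, Prdx1 and Mt1), against 21.2%, and Sod2 lay lower, against 21.0%. Each background share comes to about 2 of 10 genes, so the 4 higher in C-DE/C-C and the 0 lower in EE-C/C-C lay about 2 genes from it and the other counts about 1 or less. With the local median of each array removed the first count was 2, against 19.4% of all genes. With normexp background correction the second was 2, against 19.0%. Without EE-C array 1 the enriched exposure count was 6 higher, against 33.8% of all genes under that setting, and without EE-C array 2 it was 7 lower, against 43.4%. The comparisons share pools, so a member's values in them are not independent of each other.

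**Figure D2:**
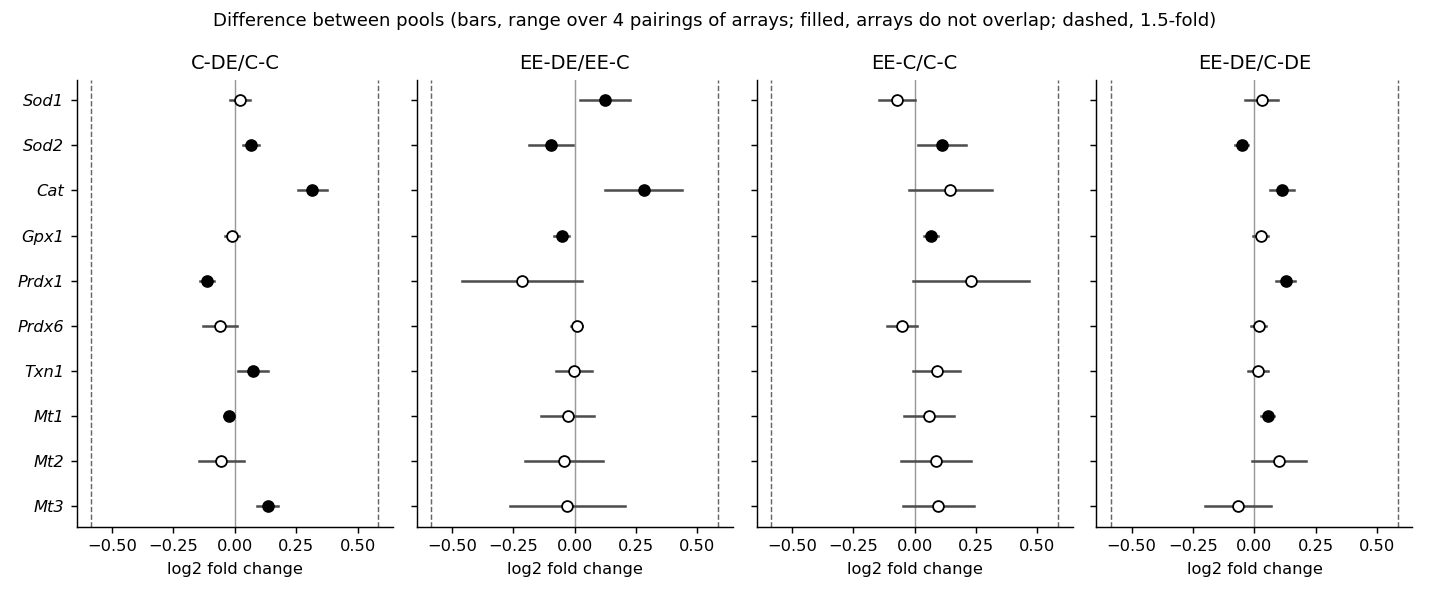
Log2 fold change of each member (points) in the 4 comparisons, with the range over the 4 pairings of arrays (bars), filled where the arrays of the pools did not overlap. Dashed lines mark 1.5-fold, which no member reached, and Prdx1 has the widest bar in both EE-DE/EE-C and EE-C/C-C.

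Among the superoxide dismutases, Sod1 (NM_011434; mm9 chr16:90226509-90226568, plus strand) read 5.94 and 5.94 in C-C, 6.00 and 5.92 in C-DE, 5.79 and 5.94 in EE-C and 6.01 and 5.96 in EE-DE. Its lowest value was that of EE-C array 1, and both EE-DE arrays lay above both EE-C arrays. The difference was 0.12 (0.02 to 0.22) between these pools, and 0.05 without EE-C array 1. In C-DE/C-C it was 0.02 (−0.02 to 0.06). Spots around that of Sod1 read 0.13 above their mean over the arrays on EE-C array 1, and with normexp background correction the difference in EE-DE/EE-C was 0.35.

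Sod2 (NM_013671; mm9 chr17:13208074-13208133, plus strand) read 4.72 and 4.68 in C-C, 4.78 and 4.76 in C-DE, 4.89 and 4.74 in EE-C and 4.71 and 4.73 in EE-DE. The exposed pool was the higher one after standard rearing and the lower one after enriched rearing, with no overlap either time. Exposure gave 0.07 (0.03 to 0.10) after standard rearing and −0.10 (−0.19 to −0.01) after enriched rearing. Between pools with the same air it was 0.11 (0.01 to 0.21) in EE-C/C-C and −0.05 (−0.08 to −0.03) in EE-DE/C-DE. Neighbouring spots read 0.10 above their mean on EE-C array 1, and without that array the value in EE-DE/EE-C was −0.02. After the local median of each array was removed, the exposure differences were 0.01 and −0.04.

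Catalase gave the widest span between pools of any member, 0.43 between the lowest and the highest pool mean. Its brighter probe (NM_009804; mm9 chr2:103294487-103294546, minus strand), the one with the CA run shown above, read 1.54 and 1.51 in C-C, 1.88 and 1.79 in C-DE, 1.52 and 1.82 in EE-C and 1.95 and 1.95 in EE-DE. All 4 exposed arrays lay above the 2 C-C arrays and above EE-C array 1, while EE-C array 2 lay above C-DE array 2. Exposure after standard rearing gave 0.32 (0.26 to 0.37), or 1.24-fold, and after enriched rearing 0.28 (0.12 to 0.44), or 1.22-fold. The duplicates of EE-C differed by as much as the pools: the value in EE-DE/EE-C was 0.13 without EE-C array 1 and 0.43 without EE-C array 2.

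The dimmer Cat probe did not share these differences. It covers 60 bases of the same transcript over an interval of 3343 bases (mm9 chr2:103297086-103300428, minus strand), so by these coordinates it spans a splice junction. It read −2.33 and −2.20 in C-C, −2.16 and −2.30 in C-DE, −2.38 and −2.08 in EE-C and −2.07 and −2.33 in EE-DE. The pools overlapped in every comparison, and exposure gave 0.04 (−0.09 to 0.18) after standard and 0.03 (−0.25 to 0.32) after enriched rearing. These ranges are wide, and the second includes the value of the brighter probe.

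**Figure D3:**
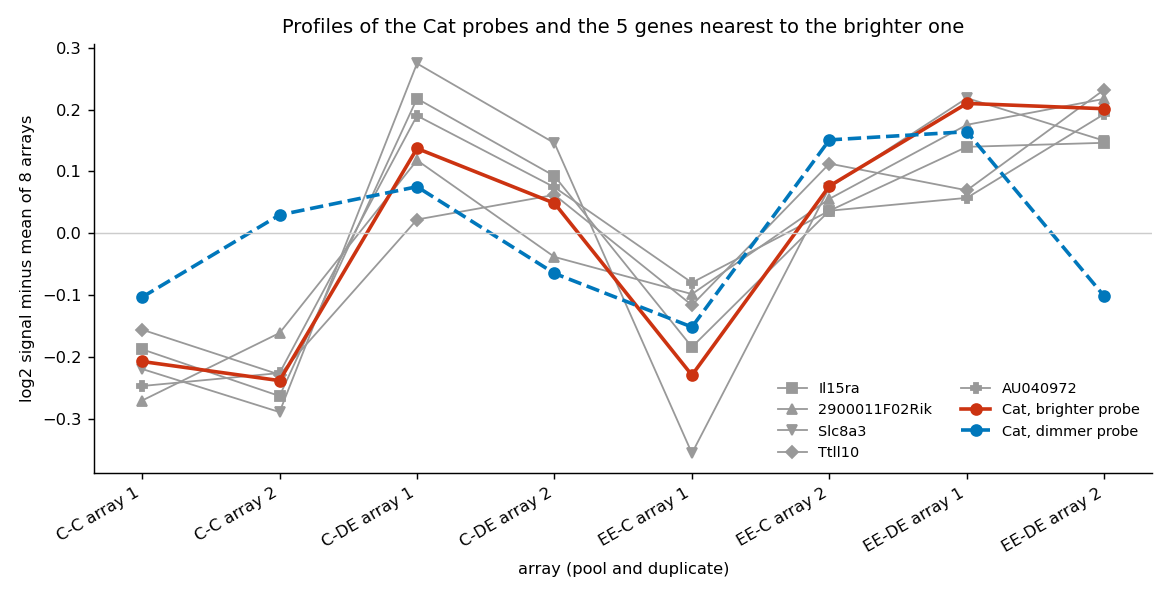
Log2 signal minus the mean over the 8 arrays (vertical axis) on each array (horizontal axis) for the brighter Cat probe (red), the dimmer Cat probe (blue, dashed) and the 5 genes nearest to the brighter one (grey). The brighter probe is below its mean in C-C and EE-C array 1 and above it elsewhere, whereas the dimmer one moves between the duplicates of each pool.

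The 5 genes outside the set whose centred profiles over the 8 arrays were nearest to that of the brighter Cat probe, among 1445 with pool means spanning at least 0.34, were Il15ra, the interleukin-15 receptor alpha chain, 2900011F02Rik, Slc8a3, a sodium-calcium exchanger, Ttll10 and AU040972. Their root mean square distances were 0.05, 0.07, 0.08, 0.08 and 0.08 on the log2 scale. The probes of 2 of the 5, Il15ra and Slc8a3, hold a run of 6 or more CA or TG dinucleotides, as the brighter Cat probe does. Il15ra lay higher by 0.38 (0.28 to 0.48) with exposure after standard and 0.22 (0.10 to 0.33) after enriched rearing, and Slc8a3 by 0.46 (0.36 to 0.56) and 0.32 (0.08 to 0.57). Both genes were picked for likeness to Cat on the same arrays, so these differences follow from the choice. The 126 passing probes with such a run include those of Cat, Il15ra and Slc8a3. The median exposure differences of the 126 were 0.05 and 0.08, against −0.01 and −0.01 for the 21580 without. Of these 126 probes, 31.0% lay higher without overlap with exposure after standard rearing and 37.3% after enriched rearing, against 18.4% and 14.5% of the others. For the 42 with a CA run, as in Cat, the shares were 28.6% and 23.8% higher and 21.4% and 11.9% lower, and for the 84 with a TG run 32.1% and 44.0% higher. In the rearing comparisons the medians were −0.03 and 0.02 with a CA run and −0.02 and −0.04 with a TG run. The part of the repeat in the Cat values was not tested.

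Gpx1 (NM_008160; mm9 chr9:108242276-108242335, plus strand), the cytosolic selenium enzyme, read 4.13 and 4.19 in C-C, 4.14 and 4.15 in C-DE, 4.23 and 4.22 in EE-C and 4.20 and 4.14 in EE-DE. Both EE-C arrays lay above all others. Exposure gave −0.01 (−0.04 to 0.02) after standard and −0.05 (−0.08 to −0.02) after enriched rearing, and enriched rearing in clean air gave 0.07 (0.04 to 0.10). The last was 0.00 with normexp and 0.03 after the local median was removed, which also brought the enriched exposure value to −0.01. Neighbouring spots read 0.06 above their mean on EE-C array 1.

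Prdx1, a peroxiredoxin of the cytosol, had 2 probes that pointed in opposite directions with exposure. The brighter (NM_011034; mm9 chr4:116371818-116371877, plus strand) read 4.26 and 4.27 in C-C, 4.18 and 4.13 in C-DE, 4.72 and 4.26 in EE-C and 4.26 and 4.29 in EE-DE. EE-C array 1 lay 0.46 above its duplicate, the largest gap between duplicates among the members, and spots around this one read 0.15 above their mean on the same array. With exposure it differed by −0.11 (−0.14 to −0.08) after standard rearing and −0.22 (−0.46 to 0.03) after enriched rearing, and the latter was 0.02 without EE-C array 1. In EE-C/C-C it was 0.23 (−0.00 to 0.47), in EE-DE/C-DE 0.13 (0.09 to 0.17), and with normexp background correction the values that involve EE-C were −0.08 for rearing and 0.01 for exposure.

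The dimmer Prdx1 probe, of the same transcript (mm9 chr4:116372422-116372481, plus strand), read 0.32 and 0.42 in C-C, 0.51 and 0.56 in C-DE, 0.56 and 0.43 in EE-C and 0.59 and 0.60 in EE-DE. Both exposed pools lay above their controls without overlap. The differences were 0.17 (0.10 to 0.23) after standard and 0.10 (0.03 to 0.17) after enriched rearing. The 2 probes thus gave no common direction for Prdx1 with exposure, and their mean was 0.03 in C-DE/C-C. With enriched rearing the dimmer probe lay higher without overlap in both comparisons, by 0.12 (0.01 to 0.24) in EE-C/C-C and 0.06 (0.04 to 0.08) in EE-DE/C-DE.

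**Figure D4:**
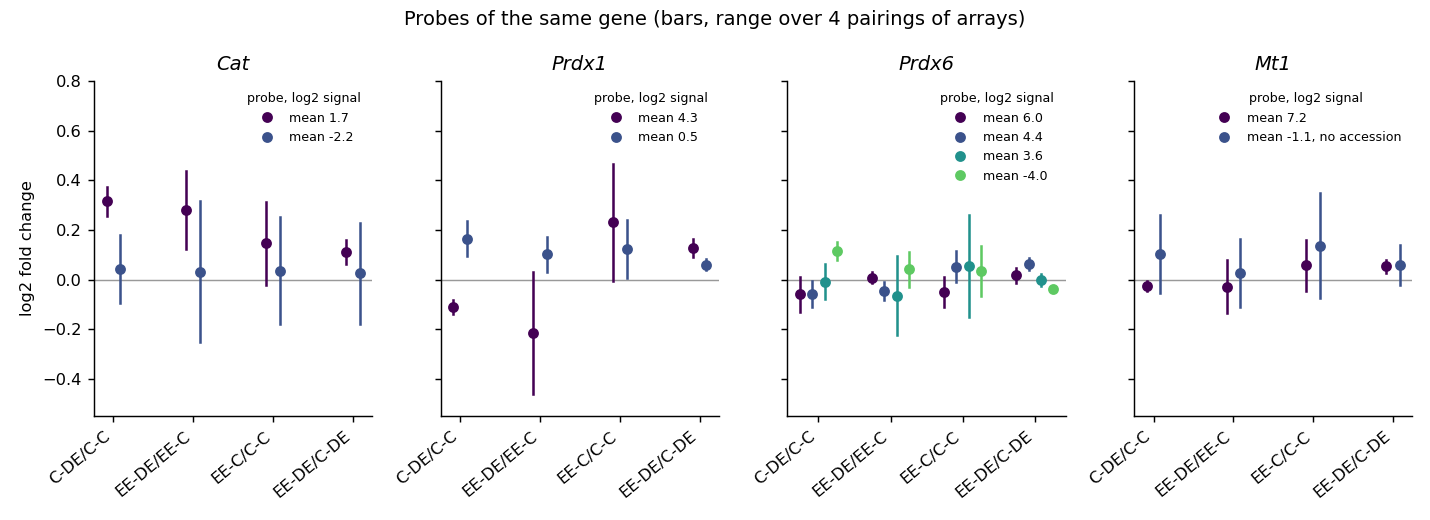
Log2 fold change (vertical axis) of each probe of the members with several probes in the 4 comparisons, with the range over the 4 pairings of arrays (bars) and the probe's mean log2 signal as its name. The Cat probes differ in size (0.32 against 0.04 in C-DE/C-C) and the Prdx1 probes in sign (−0.11 against 0.17), while all Prdx6 probes stay between −0.07 and 0.11.

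Prdx6, the peroxiredoxin that uses glutathione and also acts as a phospholipase, was the member with most probes, 4. The brightest (NM_007453; mm9 chr1:163171138-163171197, minus strand) read 6.03 and 5.96 in C-C, 5.96 and 5.90 in C-DE, 5.96 and 5.92 in EE-C and 5.95 and 5.95 in EE-DE, with no difference in any comparison that kept the pools apart. Exposure gave −0.06 (−0.13 to 0.01) after standard and 0.01 (−0.02 to 0.03) after enriched rearing. The other probes gave −0.06, −0.01 and 0.11 after standard and −0.05, −0.07 and 0.04 after enriched rearing. The second brightest kept the pools apart in 3 comparisons, lower with exposure at −0.06 (−0.11 to −0.01) after standard and −0.05 (−0.08 to −0.01) after enriched rearing, and higher at 0.06 (0.04 to 0.09) in EE-DE/C-DE. The value of 0.11 (0.08 to 0.15) came from the dimmest, at 39.1 to 44.3 intensity units.

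Txn1 (NM_011660; mm9 chr4:57956677-57956736, minus strand), the cytosolic thioredoxin, read 3.79 and 3.68 in C-C, 3.80 and 3.81 in C-DE, 3.86 and 3.78 in EE-C and 3.79 and 3.86 in EE-DE. The C-DE arrays lay just above the higher C-C array. Exposure gave 0.07 (0.01 to 0.13) after standard rearing and −0.00 (−0.08 to 0.07) after enriched rearing. The first was 0.02 with normexp, where 3 members in place of 4 lay higher without overlap in C-DE/C-C.

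The metallothionein genes Mt3, Mt2 and Mt1 lie in this order on the plus strand of chromosome 8. Their promoters, from 250 bases before to 50 after the start in RefSeq (GRCm38.p6), are of interest because the transcription factor Mtf1 binds metal response elements there when zinc is plentiful. The core of this element was searched as TGCACNC or TGCGCNC on both strands, and matches are in capitals, those on the other strand as the reverse complement. The promoter of Mt1 (chr8:94178839-94179138) held 3 matches and that of Mt2 (chr8:94172368-94172667) held 4.
Mt1: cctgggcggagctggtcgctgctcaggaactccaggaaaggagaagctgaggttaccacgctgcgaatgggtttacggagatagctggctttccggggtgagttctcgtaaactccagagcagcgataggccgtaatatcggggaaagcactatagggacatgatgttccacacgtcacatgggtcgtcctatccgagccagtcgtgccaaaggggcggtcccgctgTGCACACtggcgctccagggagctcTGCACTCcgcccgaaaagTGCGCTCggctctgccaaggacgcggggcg
Mt2: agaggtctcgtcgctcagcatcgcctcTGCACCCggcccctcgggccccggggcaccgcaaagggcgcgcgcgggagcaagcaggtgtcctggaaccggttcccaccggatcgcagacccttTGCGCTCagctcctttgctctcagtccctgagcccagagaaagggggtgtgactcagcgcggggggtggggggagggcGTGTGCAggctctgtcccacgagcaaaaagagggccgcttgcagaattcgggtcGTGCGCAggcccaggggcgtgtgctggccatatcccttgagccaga
The promoter of Mt3 held 1 match and those of Cat, Gpx1, Prdx1, Sod1, Sod2 and Txn1 none, while Prdx6 had no entry. Of the 32851 promoters in the table, 25.7% held at least 1 match and 1.97% at least 3.

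Mt1 (NM_013602; mm9 chr8:96704165-96704224, plus strand) read 7.19 and 7.16 in C-C, 7.14 and 7.15 in C-DE, 7.32 and 7.14 in EE-C and 7.18 and 7.22 in EE-DE. Apart from EE-C array 1 the values lay within 0.08 of each other. With exposure it differed by −0.02 (−0.05 to −0.00) after standard and −0.03 (−0.14 to 0.08) after enriched rearing. The sign of the first turned with quantile normalization, at 0.05, and with normexp, at 0.01. The Mt1 probe without an accession gave 0.10 (−0.05 to 0.26) and 0.03 (−0.11 to 0.16).

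Mt2 (NM_008630; mm9 chr8:96697371-96697430, plus strand) read 6.31 and 6.22 in C-C, 6.26 and 6.16 in C-DE, 6.45 and 6.25 in EE-C and 6.24 and 6.37 in EE-DE. The pools overlapped in all 4 comparisons. Exposure gave −0.05 (−0.15 to 0.04) after standard and −0.04 (−0.20 to 0.12) after enriched rearing, and enriched rearing in clean air gave 0.09 (−0.06 to 0.23).

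Mt3 (NM_013603; mm9 chr8:96677927-96677986, plus strand) read 2.96 and 2.91 in C-C, 3.08 and 3.04 in C-DE, 2.91 and 3.15 in EE-C and 3.11 and 2.88 in EE-DE. Both C-DE arrays lay above both C-C arrays, and the enriched pools spread over the whole range of the gene. Exposure gave 0.13 (0.09 to 0.18) after standard and −0.03 (−0.27 to 0.21) after enriched rearing, and the range of the second includes the first.

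**Figure D5:**
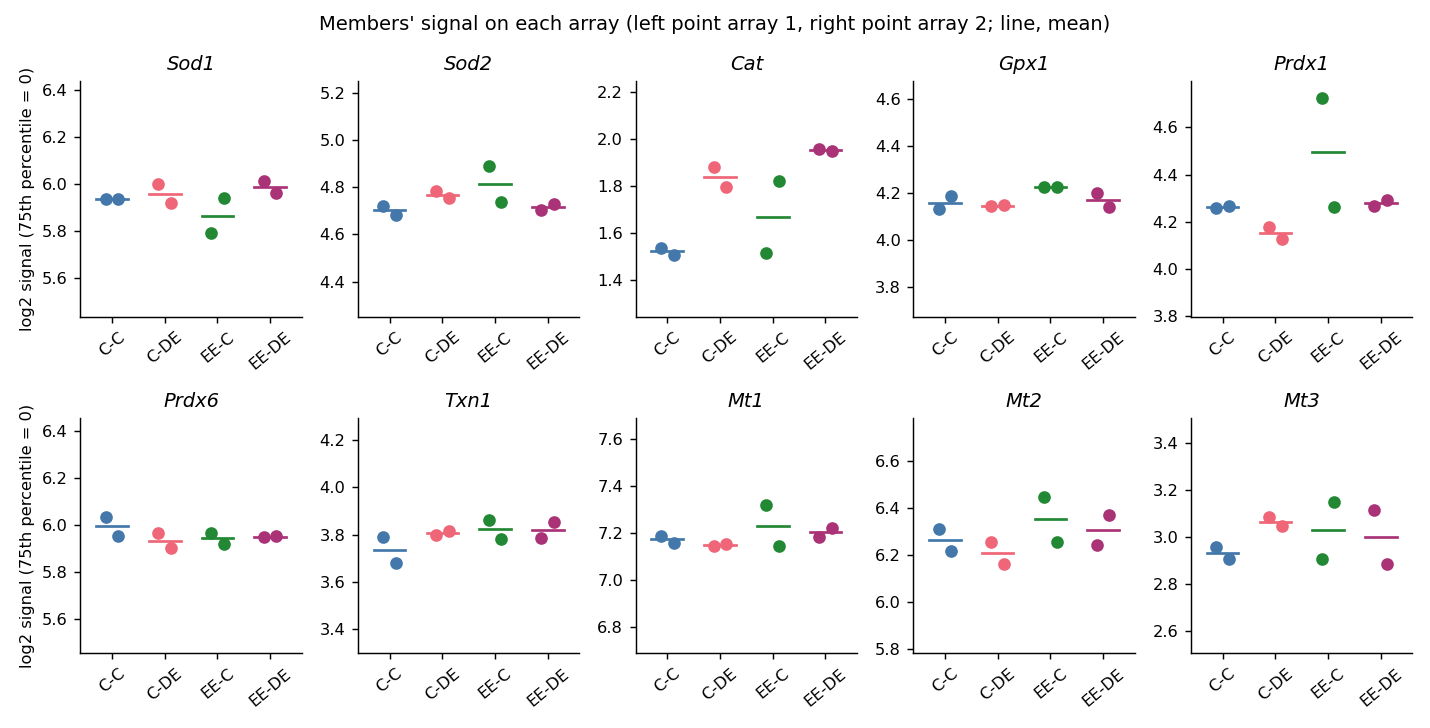
Log2 signal relative to the 75th percentile (vertical axis, 1 log2 unit in every panel) of each member on the 2 arrays (points, array 1 to the left) of each pool, with the pool mean as a line. Duplicates of EE-C lie furthest apart in most panels, up to 0.46 for Prdx1. By the brightest probes, drawn here, Cat is the only member higher without overlap in both exposure comparisons. By their dimmer probes, Prdx1 was so in both and Cat in neither. The share of all probes higher in both was not computed.

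EE-C array 1 held the highest value of 6 of 10 members (Sod2, Gpx1, Prdx1, Txn1, Mt1 and Mt2) and the lowest of Sod1. Over all passing probes, 22.7% had their highest value there. The duplicate gap of the members had a median of 0.17 in EE-C, against 0.04 to 0.05 in the other pools.

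Of 105 other genes in 7 lists of related function, 97 were measured. With exposure, 13 lay higher and 18 lower without overlap after standard rearing, and 15 and 16 after enriched rearing, which are 13.4%, 18.6%, 15.5% and 16.5% of those measured, against 18.5%, 22.4%, 14.6% and 19.6% of all passing probes. In EE-C/C-C the counts were 18 and 15 (18.6% and 15.5%, against 20.2% and 17.5%), and in EE-DE/C-DE 34 and 14, which are 35.1% and 14.4%, against 21.2% and 21.0%. A single gene reached 1.5-fold, Gpx6, a glutathione peroxidase of the olfactory mucosa, at 0.98 (0.29 to 1.67) in EE-DE/C-DE, with a range of −2.31 to 1.20 around −0.55 in C-DE/C-C. Gpx5, Mt4, Atp7b, Cox17, Cybb, Nox1 and Nox4 did not pass the filter and Msrb1 was not found by name.

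Among the other superoxide dismutase and peroxidases, 13 genes with median exposure differences of −0.02 after standard and 0.02 after enriched rearing, the highest after standard rearing was Prdx5, the mitochondrial and peroxisomal peroxiredoxin. Exposure gave 0.17 (0.15 to 0.18) after standard and −0.01 (−0.03 to −0.00) after enriched rearing, and EE-C/C-C was 0.16 (0.13 to 0.19), so that C-C was the lowest of the pools. The thioredoxin and glutaredoxin list, 15 genes, had medians of 0.01 and −0.04. Its extremes in C-DE/C-C were Nxn at 0.05 and Txnrd3 at −0.08. After enriched rearing Txnip, the inhibitor of thioredoxin, lay higher by 0.34 (0.18 to 0.51) in EE-C/C-C and 0.20 (0.14 to 0.25) in EE-DE/C-DE. Msra and Txnrd3 lay higher in both of these by at most 0.12, and Txnrd1, the cytosolic thioredoxin reductase, lay lower, at −0.08 and −0.06.

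In the list for glutathione synthesis and use, 13 genes with medians of −0.03 and −0.00, Gss, the glutathione synthetase, lay higher in both exposed pools, by 0.14 (0.07 to 0.20) after standard and 0.23 (0.17 to 0.29) after enriched rearing. The cystine transporter Slc7a11 was the lowest in C-DE/C-C at −0.13 (−0.15 to −0.11). The glutathione transferases Gstp1, Gstm5 and Gstt1 lay higher after enriched rearing in both comparisons, Gstp1 by 0.07 (0.06 to 0.08) and 0.13 (0.12 to 0.14), and Gstt1 lay lower in both exposed pools, at −0.05.

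The zinc and copper list, 22 genes with medians of −0.01 and 0.01, ranged in C-DE/C-C from −0.15 (−0.19 to −0.11) for the zinc exporter Slc30a1, which like Mt1 is a target of Mtf1, to 0.13 (0.01 to 0.24) for the zinc importer Slc39a8. Slc39a12 lay lower in both exposure comparisons, at −0.10 and −0.03, and Slc39a1 higher in both rearing comparisons, at 0.06 and 0.04. For iron and haem, 11 genes with medians of −0.01 and −0.02, Ftl1, the ferritin light chain, lay lower in both exposed pools, at −0.16 (−0.27 to −0.04) and −0.08 (−0.13 to −0.03). Hmox1, the haem oxygenase induced by oxidants, was the highest in C-DE/C-C at 0.09 (0.06 to 0.12), and gave −0.07 (−0.14 to 0.01) after enriched rearing.

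Of the 11 oxidant-producing enzymes measured, Nos2, the inducible nitric oxide synthase, lay lower in both exposed pools, at −0.32 (−0.50 to −0.15) and −0.43 (−0.77 to −0.08). Its probe was dim, at −2.01 over the 8 arrays. Nos1 was the highest in C-DE/C-C at 0.26 with a range from −0.20 to 0.73, and Cyba, a subunit of the NADPH oxidase, lay higher in both rearing comparisons at 0.11 and 0.17. Glucocorticoid-responsive genes, listed because glucocorticoids induce Mt1 and Mt2, had medians over 12 genes of 0.00 and −0.07 for exposure after standard and enriched rearing, and of 0.11 and 0.04 for rearing in clean air and under DE. Sgk1, Ddit4 and Nfkbia lay higher in both rearing comparisons, Sgk1 by 0.30 (0.18 to 0.41) and 0.14 (0.07 to 0.22). Errfi1 lay lower in both exposure comparisons, at −0.04 and −0.07, and Cdkn1a and Pdk4 marked the ends of the list in C-DE/C-C at 0.09 and −0.08.

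Markers of the cells that the tissue holds were set beside these values. All 13 markers of olfactory bulb neurons were measured, and their summed linear level was 300.3 and 308 in C-C, 310.2 and 314 in C-DE, 313.9 and 307 in EE-C and 301 and 301 in EE-DE. It was thus higher with exposure after standard rearing and lower after enriched rearing, without overlap. By gene, 3 of 13 lay higher and 1 lower without overlap after standard rearing, against 18.5% and 22.4% of all passing probes. After enriched rearing 2 lay higher and 5 lower, against 14.6% and 19.6%. The sum of the 10 astrocyte markers was 370 and 345 in C-C, 330.0 and 328 in C-DE, 369 and 344 in EE-C and 331 and 330.1 in EE-DE, lower in both exposed pools without overlap. Most of this sum is Aldoc, which differed by −0.16 (−0.23 to −0.10) after standard and −0.14 (−0.20 to −0.08) after enriched rearing, and without it the pools overlapped, at 108 and 105 in C-C, 106 and 104 in C-DE, 111 and 105 in EE-C and 106.9 and 104 in EE-DE. Aqp4 also lay lower without overlap in both exposure comparisons, at −0.10 and −0.14, while Gja1 was at 0.13 (−0.03 to 0.29) and 0.16 (0.10 to 0.22). The sum of the 7 microglia markers was lower without overlap in both exposed pools as well, at 82.8 and 75.5 in C-C, 69.8 and 69.2 in C-DE, 74.0 and 74.9 in EE-C and 71.7 and 72.2 in EE-DE. Itgam was about as much of this sum as the other 6 together, and without it the pools overlapped, at 39.4 and 37.6 in C-C, 37.9 and 36.2 in C-DE, 38.4 and 38.0 in EE-C and 39.2 and 37.3 in EE-DE. Besides Itgam, P2ry12 (−0.10 and −0.27) and Csf1r (−0.09 and −0.04) lay lower without overlap in both exposure comparisons. Higher without overlap were C1qb after standard rearing, at 0.06, and C1qa and Cx3cr1 after enriched rearing, at 0.22 and 0.05. The sum of the 7 red blood cell markers, cells rich in catalase, was 196 and 217 in C-C and 187 and 164 in C-DE, and 261 and 177 in EE-C and 198 and 203 in EE-DE, so that the exposed pool was lower after standard rearing and overlapped its control after enriched rearing. The part of these cells in the Cat values was not tested. The 7 markers of vessels and meninges summed to 358 and 341 in C-C, 295 and 338 in C-DE, 364 and 318 in EE-C and 318 and 302 in EE-DE, lower without overlap with exposure after standard rearing. Most of this sum is Ptgds, which lay lower in both exposure comparisons, at −0.15 (−0.29 to −0.01) and −0.18 (−0.33 to −0.03). The sum without Ptgds was not computed. Pecam1 lay higher without overlap in both, at 0.09 (0.07 to 0.10) and 0.10 (0.05 to 0.15). Dcn was at −0.20 and 0.66 (0.11 to 1.20). The sums of the 7 oligodendrocyte markers, between 161 and 175, overlapped in both exposure comparisons.

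All 7 markers of the supporting cells of the olfactory mucosa were at least 1.5-fold lower in C-DE/C-C, from −0.91 for Cbr2 to −1.59 for Cyp2g1, and all 7 were at least 1.5-fold higher in EE-DE/C-DE, without overlap in either. In EE-DE/EE-C 5 of 7 were at least 1.5-fold higher and in EE-C/C-C 2 of 7 lower, but there the arrays of the pools overlapped for all 7. Their summed level was 12.1 and 7.02 in C-C, 3.67 and 4.62 in C-DE, 11.5 and 4.34 in EE-C and 10.0 and 16.3 in EE-DE, so that it differed within pools as well. The sum of the 8 neutrophil markers was 5.65 and 4.75 in C-C, 3.39 and 3.02 in C-DE, 10.2 and 3.91 in EE-C and 6.29 and 4.11 in EE-DE, with 5 of 8 at least 1.5-fold lower in C-DE/C-C and 5 of 8 higher in EE-DE/C-DE. Of 8 markers of olfactory sensory neurons, whose axons reach the bulb, 4 lay lower without overlap in C-DE/C-C, against 22.4% of all passing probes. In EE-DE/C-DE 7 lay higher, against 21.2%. The mucosa and neutrophil sums were higher on EE-C array 1, which held the highest value of 6 members, than on its duplicate. So were the sums of all other marker lists except that of the microglia. The part of these cells in the members' values was not tested.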

How the data were processed

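Olfactory bulb RNA was pooled by group, labelled with Cy3 and hybridized to 8 one-colour arrays, 2 for each pool. The deposited scanner tables hold intensity per spot from Agilent Feature Extraction 10.7.3.1, with spatial and multiplicative detrending within each array switched on per the file headers. The deposited series table holds log2 values of the authors, already scaled and centred for each probe, and was used as an alternative; 99.4% of its probes lay within 0.02 of the values computed here after the same centring.

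Processed intensity was taken to log2 and the 75th percentile of noncontrol spots was subtracted. Of 59305 noncontrol spots, 23953 (21706 probes) had a GenBank or RefSeq accession, a signal well above background on all 8 arrays and no outlier flag. No noncontrol spot was saturated. Log2 values were averaged over the spots of a probe and then over duplicate arrays, and each gene was read from whichever passing probe had the highest mean. No p-value was computed, since a group is 1 pool. The number of arrays limits the precision. Python 3.11.15, numpy 2.4.6, pandas 2.3.3, R 4.3.3 and limma 3.58.1 were used, and the comparison was tested on simulated data.

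The members, lists and comparisons were chosen with earlier results of these data known. Genes outside the set were named where they were 1.5-fold apart in any comparison, did not overlap in the same direction in both exposure or both rearing comparisons, or were the highest or lowest of a functional list in C-DE/C-C; of the marker lists, only examples are named, chosen after their values were seen. Alternatives were normexp background correction (offset 50), quantile normalization, another scale, the series table, linear means, other filters, the mean of a gene's probes, removal of the local median within 20 rows and columns, and leaving out each array. A further alternative, leaving out probes with 6 or more CA or TG dinucleotides in a row, was chosen after seeing the data. Coordinates are those of the array files (mm9), and promoters those of RefSeq (GRCm38.p6).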

Additional observations from a re-analysis of the deposited data

Results flagged for a closer look

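Sod2 is listed because every pairing of arrays moved one way after standard rearing and the opposite way after enriched rearing. On the log2 scale the exposure difference was 0.0664 after standard rearing and −0.0966 after enriched rearing, and the difference of enriched against standard rearing was 0.1115 in clean air and −0.0515 under DE. The 4 values come from the same 4 pools and are not independent. The difference between them was not tested, as each group is 1 pool. Of all passing probes, 4.28% showed opposite exposure effects of this kind and 3.70% opposite rearing effects. Without EE-C array 1 the values involving EE-C were −0.02 and 0.03.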

How the results depend on the processing

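No paired analysis was possible because each group was 1 RNA pool and its duplicate arrays allow no test. No member reached 1.5-fold under any of the 19 other settings. With normexp background correction, 1 member lay lower without overlap in C-DE/C-C, 0 lower in EE-DE/EE-C, and 4 higher and 2 lower in EE-C/C-C, the members' median in EE-DE/C-DE was 0.0065, and Mt1 in C-DE/C-C turned to 0.0109. With quantile normalization the counts were 1 lower in EE-DE/EE-C, 4 higher and 1 lower in EE-C/C-C and 5 higher in EE-DE/C-DE, the median in C-DE/C-C was 0.0382, and Mt1 there turned to 0.0458. Scaling to the median gave 1 lower in C-DE/C-C and 4 higher in EE-C/C-C, and the series table gave 1 lower in C-DE/C-C. With the mean of a gene's probes, 1 lay lower in C-DE/C-C, where Prdx1 turned to 0.0268, and 1 higher in EE-DE/EE-C. With the local median removed, 2 lay higher and 1 lower in C-DE/C-C, 1 higher and 1 lower in EE-DE/EE-C and 0 lower in EE-DE/C-DE, where Sod2 turned to 0.0005. Without probes holding a CA or TG run, a choice made after seeing the data, 1 lay higher in EE-DE/EE-C. In the same order, the shares of all genes were 21.9%, 22.9%, 25.0% and 19.0% with normexp, 16.9%, 19.9%, 18.3% and 21.9% with quantile normalization, 21.5% and 25.0% with the median scale, 19.4% with the series table, 22.2% and 14.4% with the mean of probes, 19.4%, 20.4%, 17.04%, 18.6% and 19.8% with the local median removed, and 14.2% without the run probes, against 14.4% to 23.1% in the main setting. Why these values moved was not tested.

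Leaving out an array leaves fewer pairings to overlap, and in the comparisons concerned the share of all genes apart rose too, to between 27.0% and 43.6% in either direction, against 14.4% to 23.1% with all arrays. In C-DE/C-C 4 to 5 members then lay higher and 2 to 5 lower (5 without C-DE array 1, 4 without C-C array 2 and 3 without C-C array 1), with medians of −0.01 to 0.03. In EE-DE/EE-C the counts were 2 to 6 and 3 to 7 and the median −0.0490 to 0.0338. The extremes were 6 higher with the positive median without EE-C array 1, and 7 lower without EE-C array 2. In EE-C/C-C they were 3 to 6 (6 without C-C array 1 or EE-C array 2, 5 without EE-C array 1) and 0 to 2 (2 without EE-C array 1), with medians of 0.0180 to 0.1263 (the lowest without EE-C array 1), and in EE-DE/C-DE 3 to 6 (6 without C-DE array 1 or EE-DE array 2, 5 without EE-DE array 1) and 1 to 3 (3 without EE-DE array 1), with medians of 0.0241 to 0.0475. Of the single members' values under the other alternatives, 409 moved by less than the spread between duplicates, 27 by more and 4 changed sign after being called. Depth is not given by arrays. The dimmest probes among the members, of Cat and Prdx6, lay at 126 to 171 and 39.1 to 44.3 intensity units. Some marker genes were as dim, the red blood cell marker Ahsp having a mean log2 signal of −4.11.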
